A study of Mus musculus with 24 samples.

Results

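The central and the dorsal suprachiasmatic nucleus (SCN) of mice that had received no light pulse were compared on 8 of the 24 arrays of the series, 4 of central and 4 of dorsal tissue. These are the arrays labelled as sham-treated samples of the central or the dorsal SCN. The mice were adult C57BL/6 animals, obtained when 8 weeks old, and the sources used here name no mutation or transgene. All had lived for at least 7 days in constant dim red light without other timing cues. The other treatment arm was kept in the same way and then given clock-advancing light for 30 min. The mice described here went through a sham procedure, and both arms were killed 3.5 h afterwards. Each subregion was cut by laser microdissection from stained coronal sections 25 µm thick, and its RNA was amplified and put on 1 array. Of the other arrays, 4 held sham ventral SCN and served for the spread and for placing the values. The light arrays, 4 each of central, dorsal and ventral SCN, served for the comparison at the end. How the borders between subregions were drawn, and which arrays share an animal, was not stated in the labels used here, so p-values measure the spread between these samples only.

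The SCN is the master circadian clock of mammals and is built mostly of GABA-releasing neurons that differ in the peptide they make. In the usual scheme a ventral core receives retinal input and holds neurons with the peptide VIP, from the gene Vip, and others with gastrin-releasing peptide, from Grp. A dorsal shell contains neurons that make vasopressin (Avp). Core neurons signal to the shell through these peptides and through GABA, and both send their output mainly to nearby hypothalamic regions.

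Levels are given as the authors deposited them, as log2 expression values, and 1 unit is a 2-fold change on that scale. Every difference is central minus dorsal, fitted with limma together with the labelled batch on the 12 sham arrays, with its standard error (SE). Genes with a Benjamini-Hochberg adjusted p under 0.05 over the 13494 tested genes are called higher or lower in central SCN. Each group had replicates 1 and 2 in the batch labelled A and replicates 3 and 4 in batch B. The batches were on different scales, with medians of the central and dorsal arrays of 3.58 to 3.62 in A and 4.81 to 5.02 in B. No sham array stood apart within its batch, where each central or dorsal array had a median correlation with the others of 0.977 to 0.983. The Gapdh 3′ probe set exceeded the 5′ one by 2.06 to 3.28 in batch A and by 0.907 to 1.07 in batch B, and the ranges of the central and dorsal arrays overlapped within each batch. Each sample pools many cells, so an area with fewer cells of a type cannot be told apart from one with less RNA per cell.

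The largest differences between central and dorsal SCN were those of the peptide genes Sst and Oxt, lower in central SCN, and Vip, higher there. Ccn3, Nectin3 and Cthrc1 were also among the genes most raised in central SCN, and the myelin gene Mobp was among the lower ones. The test called 628 genes (4.65% of those tested), of which 240 (1.78%) were higher and 388 (2.88%) lower in central SCN. More than 2-fold differences made up 84 of the higher and 135 of the lower genes. All 628 had the same direction in both batches, and for 613 of them the central and dorsal arrays did not overlap in either batch, a pattern found in 14.0% of all tested genes. The genes were called from these same arrays, so these counts are not an independent check. With the replicate number as a block the count was 1036, which included 626 of the 628. On the 8 central and dorsal arrays alone, paired by replicate number, it was 630, of which 487 were among the 628. In that fit Calb2, Gjb6, Grik2, Nefm, Rgs3, Rorb and Tyrobp no longer passed. Tested alone, batch A (2 arrays a group) gave 91 genes and batch B gave 11. The count was 374 without central replicate 4 and also 374 without dorsal replicate 3, and fitted on all 24 arrays, light arrays included, it was 253, which ended the calls of 22 named genes, Calb2, Six6, Nrn1 and Rasd2 among them.

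**Figure D1:**
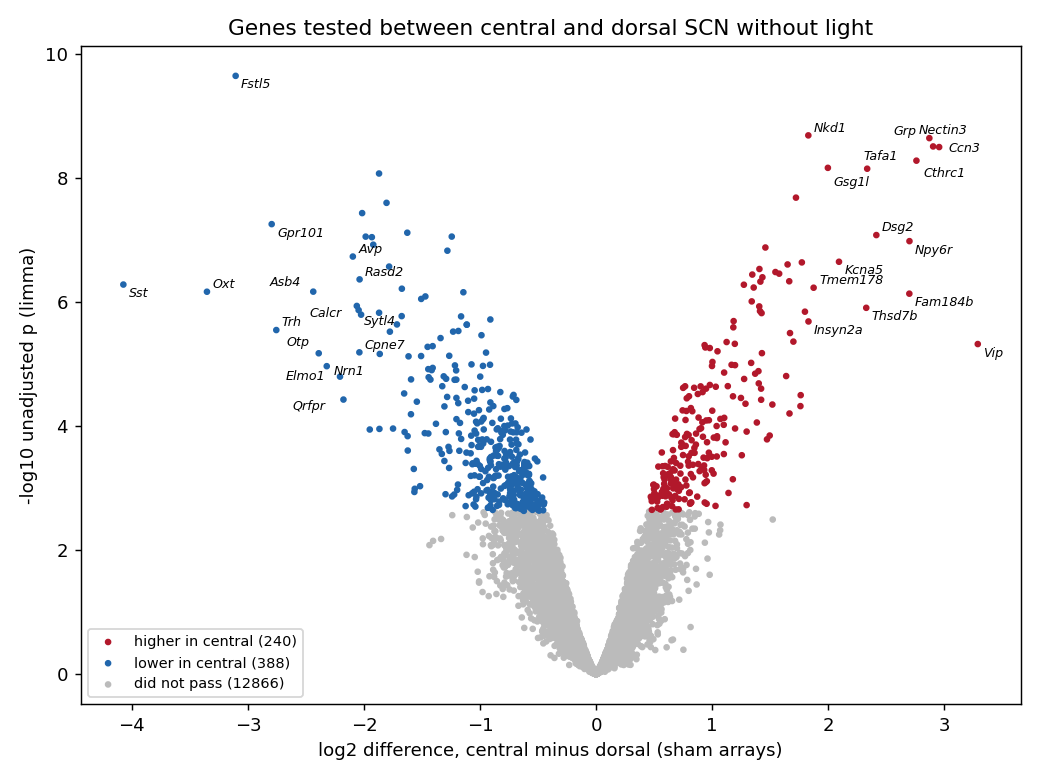
Log2 difference between central and dorsal SCN in sham arrays (x axis) against the negative log10 of the unadjusted p (y axis) for each of the 13494 tested genes. The 240 higher genes are red and the 388 lower genes blue, and the 30 genes with the largest differences are named; Sst has the largest negative and Vip the largest positive difference.

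The promoters of 3 peptide genes are shown: Vip and Avp, the textbook markers of core and shell, and Sst, which had the largest difference of all tested genes. The sequences are from RefSeq (GRCm38.p6) and run from 250 bases before the annotated start of the gene to 50 bases after it, on the coding strand. Vip (chr10:5638968-5639267, plus strand) and Sst, the gene of somatostatin (chr16:23890795-23891094, minus strand), are classic targets of the factor CREB, which binds the cAMP response element. Avp (chr2:130582539-130582838, minus strand) is a classic target of the clock proteins CLOCK and BMAL1, which bind the E-box. Capitals mark TGACG, the core of the cAMP response element, in Vip, the full element TGACGTCA in Sst, and the E-box CACGTG in Avp.
Vip: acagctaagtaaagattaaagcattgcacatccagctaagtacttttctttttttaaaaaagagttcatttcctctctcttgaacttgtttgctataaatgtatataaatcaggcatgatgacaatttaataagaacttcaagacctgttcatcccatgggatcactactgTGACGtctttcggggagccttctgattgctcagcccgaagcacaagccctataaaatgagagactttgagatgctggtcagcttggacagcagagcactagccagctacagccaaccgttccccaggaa
Avp: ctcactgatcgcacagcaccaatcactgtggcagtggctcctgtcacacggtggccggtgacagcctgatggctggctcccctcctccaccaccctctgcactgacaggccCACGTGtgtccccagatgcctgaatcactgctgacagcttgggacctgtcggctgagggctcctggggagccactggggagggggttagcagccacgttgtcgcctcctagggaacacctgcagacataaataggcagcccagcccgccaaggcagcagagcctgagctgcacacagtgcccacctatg
Sst: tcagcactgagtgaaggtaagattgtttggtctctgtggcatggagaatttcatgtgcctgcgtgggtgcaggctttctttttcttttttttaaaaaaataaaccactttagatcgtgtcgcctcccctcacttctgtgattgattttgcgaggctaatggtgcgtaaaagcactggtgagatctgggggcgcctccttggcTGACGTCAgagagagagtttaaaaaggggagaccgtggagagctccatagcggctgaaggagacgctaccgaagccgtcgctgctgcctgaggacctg
Counted from the start, the marked letters begin at base -79 in Vip, base -139 in Avp and base -48 in Sst. Both strands were searched in 32851 such windows, and TGACG is contained in TGACGTCA, where it occurs on each strand. TGACG was present in a window of 27.1% of higher genes and 26.3% of lower genes, in 20.8% of all windows, and in a window of 34.1% of all tested genes. The shares of genes count a gene with any matching window, so they are not in the same unit as the share of all windows. For CACGTG the shares were 4.79%, 10.1%, 7.15% and 11.3% in the same order, and for TGACGTCA 1.60%, 2.36%, 1.79% and 3.45%. The D-box TTATGNAA was in 4.26%, 3.70%, 3.38% and 2.56%, and the homeodomain core TAATTA in 2.66%, 3.70%, 5.29% and 3.29%. A window was found for 188 of the higher, 297 of the lower and 10880 of the tested genes, and a match is a description of letters only.

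Vip, the peptide that synchronises SCN neurons, was high on every central array. Its values were 11.62, 11.24, 11.79 and 12.36 in central replicates 1 to 4, against 8.29, 6.87, 8.14 and 10.55 in the dorsal arrays. The groups did not overlap, and dorsal replicate 4 lay well above the other dorsal arrays. The difference was 3.29 ± 0.446 (SE, n = 4 each, limma adjusted p = 0.000846), and it was 3.85 in batch A and 2.73 in batch B. Grp, a peptide of light-responsive core cells, had 10.38, 10.52, 11.11 and 11.47 in central and 6.87, 7.59, 8.42 and 9.11 in dorsal SCN. Every central array was above every dorsal array, by 2.87 ± 0.204 on average (7.32-fold, limma adjusted p = 8.61e-06). Calb2, the calcium-binding protein calretinin, had 7.78, 7.69, 9.06 and 9.11 in central and 6.23, 6.75, 8.64 and 8.57 in dorsal arrays. Its groups were separate within each batch, with a difference of 0.86 ± 0.169 (limma adjusted p = 0.0103, and 0.0513 on the 8 arrays paired by replicate number) that was 1.24 in batch A and 0.48 in batch B.

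Of the 9 tested core markers, Vip, Grp and Calb2 were higher, Gal was lower and 5 did not pass. Over all tested genes 1.78% were higher and 2.88% lower. The list's median difference was −0.32 against −0.03 over all tested genes. Gal, the gene of galanin, was close to or below the array medians in central SCN, with 3.87, 3.82, 4.34 and 3.99 in central and 4.48, 4.21, 4.98 and 4.77 in dorsal arrays. Its difference of −0.60 ± 0.134 (limma adjusted p = 0.0196) missed the threshold without central replicate 4, at 0.0718. Calb1, the gene of calbindin, which marks core cells in several rodents, had a difference of −0.32 ± 0.146 (limma adjusted p = 0.287). Penk, the enkephalin precursor, had −0.75 ± 0.248 (limma adjusted p = 0.12, and 0.0302 with the replicate block). The neurotensin gene Nts (−1.12), the tachykinin gene Tac1 (−1.44) and the dopamine receptor gene Drd1 (0.23) also did not pass.

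Avp, the shell peptide that also sets water balance when released from magnocellular neurons, was lower in central SCN in each pair of arrays. Its values were 5.33, 6.23, 7.55 and 6.84 in central and 7.52, 8.06, 9.50 and 9.24 in dorsal arrays. The groups were separate within each batch, with a difference of −2.10 ± 0.214 (4.27-fold, limma adjusted p = 0.000109) that was −2.01 in batch A and −2.18 in batch B. Avp was the only one of 8 tested shell markers that passed, against 4.65% of all tested genes, and the list's median difference was 0.08. Prok2, a rhythmic output peptide, had 3.67, 4.06, 9.73 and 8.99 in central and 3.54, 3.93, 8.83 and 9.15 in dorsal arrays. Prok2 differed far more between batches than between regions (0.25 ± 0.325, limma adjusted p = 0.773). In batch A its values were near the array medians, where a difference between regions could be missed. Cck (−0.70), Rgs16 (−0.49), Nmu (0.17), C1ql3 (−0.00), Prokr2 (0.30) and the vasopressin receptor gene Avpr1a (0.39) did not pass. A ninth shell marker, Nms, had no probe set assigned to it alone and was not analysed here.

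**Figure D2:**
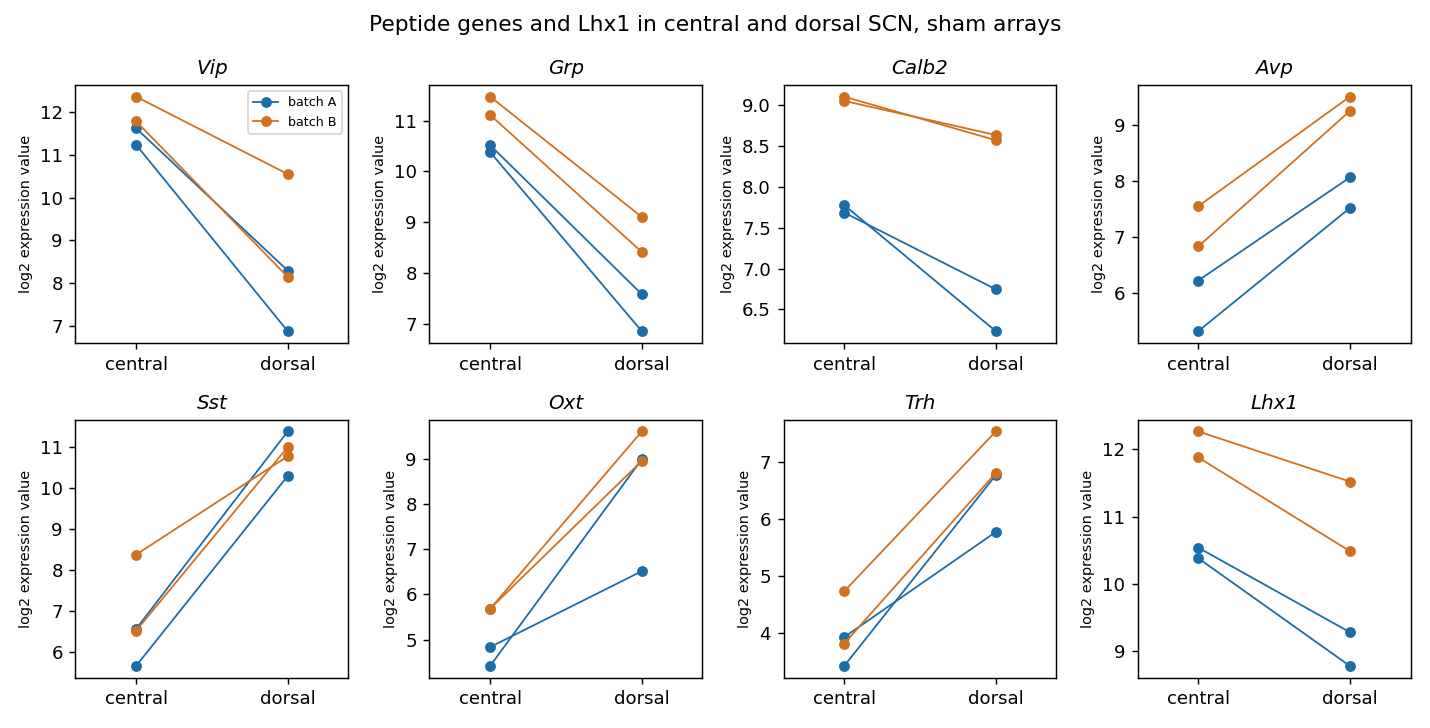
Log2 expression values (y axis, scale differs between panels) of 7 peptide or calcium-binding genes and Lhx1 on the 4 central and 4 dorsal sham arrays. Lines join arrays with the same replicate number, blue for batch A and orange for batch B; Vip, Grp, Calb2 and Lhx1 are higher in central SCN and Avp, Sst, Oxt and Trh lower in each of the 4 pairs.

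Sst showed the largest difference of all genes. Somatostatin inhibits the release of growth hormone and of many other peptides. Its values were 6.56, 5.66, 8.37 and 6.52 in central and 11.37, 10.29, 10.76 and 10.99 in dorsal arrays. All dorsal arrays were above 10 and central replicate 3 was the highest central array, and the difference was −4.07 ± 0.454 (16.8-fold, limma adjusted p = 0.000192). It was −4.72 in batch A and −3.43 in batch B. Oxt, the oxytocin gene, had 4.42, 4.84, 5.69 and 5.68 in central and 8.98, 6.51, 8.95 and 9.60 in dorsal arrays, where replicate 2 was well below the others. The difference was −3.35 ± 0.382 (limma adjusted p = 0.000219). Oxt lies next to Avp on chromosome 2, with 0 annotated genes between them.

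Oxytocin neurons lie in the paraventricular and supraoptic nuclei, so Oxt is also in a list of markers of neighbouring hypothalamic neurons. Of its 14 tested members 5 were lower and 1 was higher, against 2.88% and 1.78% of all tested genes. The other 8 did not pass, and the list's median difference was −0.43. Mean levels of the list on single arrays were 4.10 to 4.22 in central and 4.85 to 4.95 in dorsal SCN in batch A, and 5.06 to 5.16 and 6.11 to 6.15 in batch B. Trh, the gene of thyrotropin-releasing hormone, had 3.92, 3.41, 4.73 and 3.81 in central and 5.77, 6.77, 7.54 and 6.81 in dorsal arrays. No central array reached any dorsal array, and the difference was −2.76 ± 0.356 (limma adjusted p = 0.000579). Otp, a homeodomain factor needed to form neuroendocrine neurons, had 3.48, 4.86, 5.30 and 6.00 in central and 5.71, 6.16, 9.02 and 8.31 in dorsal arrays. The groups were separate within each batch, with a difference of −2.39 ± 0.335 (limma adjusted p = 0.00105). Slc17a6, the vesicular transporter of glutamatergic neurons, and Slc18a2, the vesicular monoamine transporter, were lower by −1.65 and −0.94. Slc6a3, the dopamine transporter, was higher (1.10 ± 0.226, limma adjusted p = 0.013). The defining genes Hcrt, Th, Sim1 and Nr5a1 did not reach the level needed for testing, and Agrp, Kiss1 and Gnrh1, with no probe set assigned to them alone, were not analysed here. The part that cells from outside the SCN have in these differences was not tested.

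Over the 27 tested neuropeptide precursors, 2 were higher and 6 lower, against 1.78% and 2.88% of all tested genes. The other 19 did not pass, and the median was −0.38. Beside the peptides above, Adcyap1, the gene of PACAP, was lower by −1.03 ± 0.195 (limma adjusted p = 0.00786). Of 14 genes for granins and peptide processing, a list that also holds Sst, Vgf was lower (−1.33 ± 0.272) and Cadps2, which primes dense-core vesicles, was higher (0.82 ± 0.159). The granins Chga (0.09), Chgb (−0.07) and Scg2 (0.02), the processing enzymes Pcsk1 (0.25) and Cpe (−0.07) and the other members did not pass, and the list's median was −0.01.

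The 15 genes with the largest positive differences, beside Vip and Grp, included Ccn3, Nectin3, Cthrc1, Npy6r and Nkd1. Ccn3, a secreted matricellular protein, had 9.19, 8.996, 9.55 and 9.80 in central and 5.62, 6.05, 6.47 and 7.57 in dorsal arrays. The 4 central values spanned less than 1 unit and all exceeded the dorsal ones, by 2.96 ± 0.216 (7.76-fold, limma adjusted p = 8.61e-06). A further probe set of Ccn3 gave 2.94. Nectin3, an adhesion molecule of cell contacts and synapses, had 6.16, 5.96, 8.77 and 8.47 in central and 2.92, 3.29, 5.49 and 6.05 in dorsal arrays. In batch A the dorsal values lay below the array median, and the difference was 2.90 ± 0.211. Cthrc1, a secreted glycoprotein that acts in Wnt signalling, had 6.19, 6.55, 8.16 and 9.12 in central and 3.78, 3.29, 5.66 and 6.24 in dorsal arrays. The groups were separate in both batches, by 2.76 ± 0.210.

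Npy6r, a receptor for peptides of the neuropeptide Y family, had 5.71, 5.39, 7.53 and 8.49 in central and 2.60, 2.77, 4.84 and 6.10 in dorsal arrays. Its difference was 2.70 ± 0.262 (limma adjusted p = 7.43e-05). Nkd1, an inhibitor of Wnt signalling, had 7.19, 7.29, 7.82 and 7.80 in central and 5.56, 5.49, 5.75 and 5.99 in dorsal arrays. It had the smallest SE of the 15, with a difference of 1.83 ± 0.129 (limma adjusted p = 8.61e-06). The others were Fam184b (2.70), the desmosomal cadherin Dsg2 (2.41), the secreted protein gene Tafa1 (2.34), Thsd7b (2.33), the potassium channel Kcna5 (2.09), the AMPA receptor partner Gsg1l (2.00), Tmem178 (1.87) and Insyn2a (1.83), whose product acts at inhibitory synapses. Their adjusted p in limma did not exceed 0.000846 for any of the 15. Of the 29 other probe sets of the 30 genes with the largest differences either way, 24 gave the same sign, and the 5 others belong to Insyn2a (−0.24), Fam184b (−0.16), Dsg2 (−0.15), Thsd7b (−0.11) and the lower gene Sytl4 (0.03). Fam184b had another probe set at 0.19 and a mean level of 5.66, and the further probe sets of Dsg2 gave 0.14 to 2.63, so the values of these genes depend on the probe set. Among the other called genes of the lists, Htr7, Kcnj9, Mbp, Ncald, Npy1r, Opalin, Pdgfra, Rgs4 and Sema3c each had a probe set of opposite sign, between −0.06 and 0.18. Most probe sets of opposite sign had a mean level over all arrays under 4, the level of the filter. The exceptions were those of Insyn2a (5.38), Ncald (4.27) and Pdgfra (4.01).

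The 15 genes with the largest negative differences, beside Sst, Oxt, Trh, Otp and Avp, included receptors and signalling genes. Fstl5, a secreted follistatin-like protein, had 4.07, 3.72, 6.69 and 6.72 in central and 7.10, 6.55, 10.23 and 9.76 in dorsal arrays. The pairs differed by similar amounts, which gave −3.11 ± 0.184 and the lowest adjusted p of all named genes in this comparison (limma, 3.06e-06). Gpr101, an orphan receptor expressed in the hypothalamus, had 5.13, 4.69, 8.28 and 7.99 in central and 8.43, 8.30, 10.47 and 10.06 in dorsal arrays. Its difference was −2.79 ± 0.257, larger in batch A than in batch B. Calcr, the calcitonin receptor, had 4.30, 4.32, 6.95 and 5.93 in central and 6.38, 6.18, 8.43 and 8.76 in dorsal arrays, a difference of −2.06 ± 0.246 (limma adjusted p = 0.000325). Qrfpr, the receptor of the peptide QRFP, was below the array medians in central SCN and differed by −2.18 ± 0.360. Asb4 (−2.44), the neurite-promoting gene Nrn1 (−2.32), the Rac activator subunit Elmo1 (−2.21), the granule-docking gene Sytl4 (−2.05), the copine Cpne7 (−2.04) and the Ras-like Rasd2 (−2.04) made up the rest. For 6 of the 15 higher and 7 of the 15 lower genes the group with less signal had a batch A mean under 4, near the array median, where the size of a difference is less certain. Over the 240 and 388 called genes the same held for 41 and 93.

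**Figure D3:**
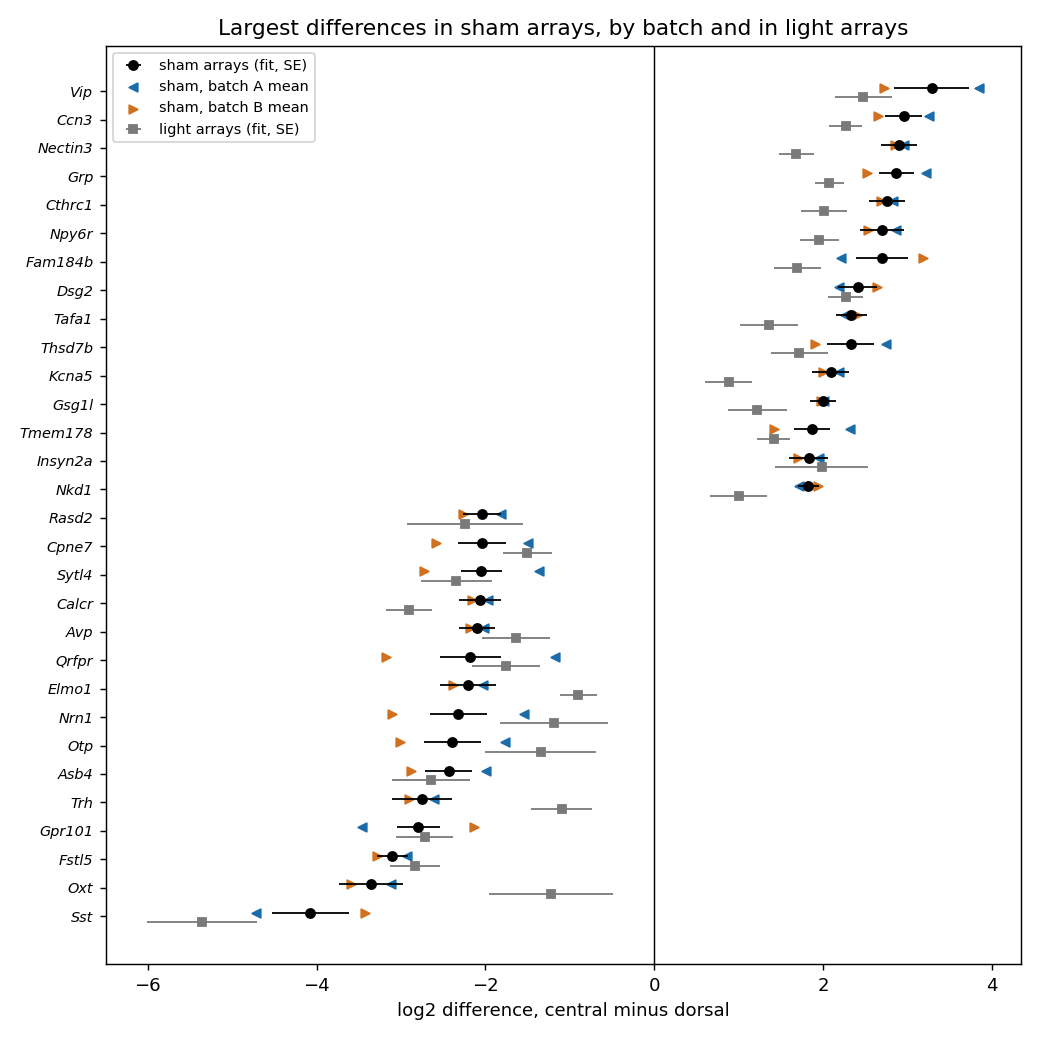
Log2 difference, central minus dorsal, of the 15 genes most above and the 15 most below dorsal SCN in sham arrays (black, with SE). Triangles give the within-batch sham means (blue A, orange B) and grey squares the light arrays (with SE). The same sign in both sham batches was required for choosing the 30, and all 30 also have that sign in the light arrays.

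Transcription factors that shape the hypothalamus were found on both sides. Lhx1, a LIM homeodomain factor that SCN neurons need for their coupling, had 10.54, 10.38, 11.88 and 12.26 in central and 9.28, 8.78, 10.49 and 11.52 in dorsal arrays. The groups were separate within each batch and differed by 1.25 ± 0.205 (limma adjusted p = 0.00328). Six6, needed for the SCN to form, was higher by 0.79 ± 0.168 (limma adjusted p = 0.0157). Rorb, an orphan nuclear receptor of the clock and of sensory tissue, was lower by −0.66 ± 0.153, with a limma adjusted p of 0.0243 that was 0.0708 without dorsal replicate 1, and it did not pass with the arrays centred on their medians. Of the 38 tested hypothalamic factors 4 were higher and 6 lower, against 1.78% and 2.88% of all tested genes. The other 28 did not pass, and the median was 0.10. Sox11 (1.01) and Nr2f2 (0.78) were the other higher ones. Bcl11b (−1.41 ± 0.208), Mef2c (−1.16 ± 0.144), Zic5 (−1.33 ± 0.209), Zic2 (−0.53), Dlx1 (−0.89) and Otp were lower. Other probe sets gave −1.08 to −0.26 for Bcl11b, −1.19 to −0.09 for Mef2c and −0.79 to −0.26 for Zic5. They gave −0.11 for Otp and −0.43 and −0.12 for Rorb, so the size of these differences depends on the probe set. Zfhx3, a factor of the SCN that sets clock speed, had 0.52 ± 0.141 and a limma adjusted p of 0.0546, or 0.0205 with the replicate block. Of 19 SCN-enriched genes tested, Six6 and Lhx1 were higher, Rorb, Dlx1 and Vgf were lower and 14 did not pass, with a median of −0.01. The SCN genes Lhx1 and Calb1 were far above the array medians in both subregions.

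Of the 30 tested peptide and monoamine receptors, 3 were higher and 5 lower, against 1.78% and 2.88% of all tested genes. The other 22 did not pass, and the median was −0.09. Npy5r, which binds neuropeptide Y, the transmitter of an input from the thalamus to the SCN, had 6.55, 6.53, 7.62 and 8.52 in central and 4.37, 5.49, 5.58 and 6.75 in dorsal arrays. Central arrays were above dorsal ones within each batch, by 1.76 ± 0.298 (limma adjusted p = 0.00407). Npy1r was also higher (0.89 ± 0.197), while Npy2r was lower (−1.52 ± 0.358). The orphan receptor Gpr83 was higher (1.12 ± 0.218), and Htr7, a serotonin receptor that shifts the clock, was lower (−0.80 ± 0.200). Ntsr2, a neurotensin receptor found on astrocytes, was lower by −0.59, and its adjusted p in limma was 0.0648 without central replicate 4. The receptors of the core peptides, Vipr2 (−0.09 ± 0.195) for Vip and Grpr (0.60 ± 0.254) for Grp, did not pass.

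RGS proteins shorten G-protein signals. Of 14 tested, 4 were lower and none was higher in central SCN, against 2.88% and 1.78% of all tested genes. Their median was −0.38. Rgs10 had 6.13, 6.11, 7.44 and 7.11 in central and 7.63, 7.87, 9.85 and 9.13 in dorsal arrays. Its groups were separate in each batch, by −1.92 ± 0.188 (limma adjusted p = 8.06e-05). Rgs4 (−1.42 ± 0.210) and Rgs8 (−1.02 ± 0.218) were lower as well, and Rgs3 (−0.54 ± 0.140) passed with a limma adjusted p of 0.044, which was 0.133 without central replicate 3, and it did not pass with median centring or quantile normalization. The adjusted p of Rgs8 was 0.0592 without central replicate 4.

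Ion channels split in both directions. Of 47 genes in a list named for voltage-gated channels, which also holds other channels and auxiliary subunits, 5 were higher and 7 lower. Over all tested genes 1.78% were higher and 2.88% lower. The other 35 genes of the list did not pass, and its median was −0.02. Kcna5 (2.09 ± 0.217), the ether-à-go-go channel Kcnh1 (1.35 ± 0.145), Cacna2d3 (1.20 ± 0.175), the L-type calcium channel Cacna1d (0.84 ± 0.134) and the A-type channel Kcnd3 (0.66) were higher. Kcnip4 (−1.87 ± 0.228), which modulates A-type channels, the sodium channel Scn1a (−1.14 ± 0.131), Kcnab1 (−1.01), Kcnq3 (−0.93), Kcnk2 (−0.83), Kcnj9 (−0.76) and Kcnc2 (−0.68) were lower. Of 23 genes of GABA and glycine signalling 1 was higher, 4 were lower and 18 did not pass. The glycine receptor subunit Glra3 was higher (1.37 ± 0.206), while its relative Glra2 (−1.27 ± 0.253) and the GABA receptor subunits Gabra5 (−1.45 ± 0.272), Gabra3 (−0.74) and Gabrb2 (−0.69) were lower. The GABA-synthesising enzymes Gad1 (−0.09 ± 0.209) and Gad2 (−0.27 ± 0.134) and the vesicular transporter Slc32a1 (−0.14 ± 0.133) did not pass.

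Among 23 glutamate receptor genes and their partners, Cacng3 (1.04 ± 0.199) and Grik2 (0.58 ± 0.132) were higher, and the AMPA receptor subunit Gria3 (−1.47 ± 0.170) and Cacng5 (−1.22 ± 0.178) were lower. The call of Grik2 was lost without dorsal replicate 1, at a limma adjusted p of 0.0663. Syt1, the calcium sensor of fast transmitter release, was the 1 synaptotagmin of 12 that passed, against 4.65% of all tested genes. It had 7.48, 7.04, 9.01 and 8.69 in central and 9.19, 9.34, 10.78 and 10.39 in dorsal arrays, a difference of −1.87 ± 0.148 (limma adjusted p = 1.28e-05). Of 15 calcium-binding and sensor genes, Calb2 and Pcp4 (0.92 ± 0.148) were higher and S100b (−0.69), Ncald (−0.79), Hpcal1 (−0.60) and Cpne7 were lower. Other probe sets of Ncald gave −0.49 and 0.08.

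Genes of axon guidance and cell adhesion passed in both directions. Axon guidance genes are ligands and receptors that steer growing axons and remain in adult neurons. Of 29 tested, 7 were higher, 1 was lower and 21 did not pass, against 1.78% higher and 2.88% lower over all genes. Positive differences made up 24 of the 29 (median 0.31), against 5986 of the 13494 over all tested genes. Ephb1, a receptor of ephrin-B ligands, had 8.43, 8.69, 9.50 and 9.90 in central and 6.96, 7.17, 7.97 and 8.77 in dorsal arrays. Central arrays were above dorsal ones in each batch, by 1.41 ± 0.172 (limma adjusted p = 0.000364). The netrin receptor Unc5c (0.94 ± 0.129), the neuropilins Nrp1 (0.92 ± 0.176) and Nrp2 (0.50), the repellent Slit1 (0.88 ± 0.142), Epha5 (0.68) and the ligand Efnb3 (0.65) were higher, and Sema3c was lower (−0.71). Of 23 cadherins and protocadherins 5 were higher and 4 were lower, with a median of 0.14. Dsg2, Pcdh20 (1.18), Pcdh10 (0.98 ± 0.135), Pcdh18 (0.93) and Pcdh19 (0.86) were the higher ones, and Pcdh11x (−1.27 ± 0.179), Pcdh17 (−0.91), Cdh13 (−0.89 ± 0.150) and Pcdh8 (−0.78) were lower.

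Among core clock genes, which form the transcriptional feedback loop of the circadian oscillator, 1 of 22 tested passed. Rorb was lower and 21 did not pass, with a median of −0.09. Over all tested genes 4.65% passed. The differences were −0.56 ± 0.235 for Per1, −0.49 ± 0.262 for Per2, −0.04 ± 0.140 for Cry1, −0.38 ± 0.173 for Cry2, 0.03 ± 0.127 for Arntl, 0.28 ± 0.201 for Clock, 0.03 ± 0.140 for Nr1d1 and −0.15 ± 0.143 for Dbp. Per3 had 0.69 ± 0.193 and a limma adjusted p of 0.0617, or 0.0419 with the replicate block. Of 29 tested activity-dependent genes 2 were lower, against 2.88% over all tested genes, and the others did not pass. Their median was −0.21, and 23 of their differences were negative, as were 7508 of the 13494 over all tested genes. Vgf (−1.33) and Btg2 (−0.87 ± 0.196) were the lower ones, and the adjusted p of Btg2 in limma was 0.0726 without dorsal replicate 3. Fos, the classic marker of neuronal activation, had 5.07, 6.20, 9.05 and 10.91 in central and 7.10, 7.99, 10.24 and 11.24 in dorsal arrays. Each central array was below the dorsal array of its number, yet central replicate 4 was above dorsal replicate 3. The difference for Fos was −1.34 ± 0.415 with a limma adjusted p of 0.0963, or 0.0113 with the replicate block, and Egr1 had −0.45 ± 0.259.

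**Figure D4:**
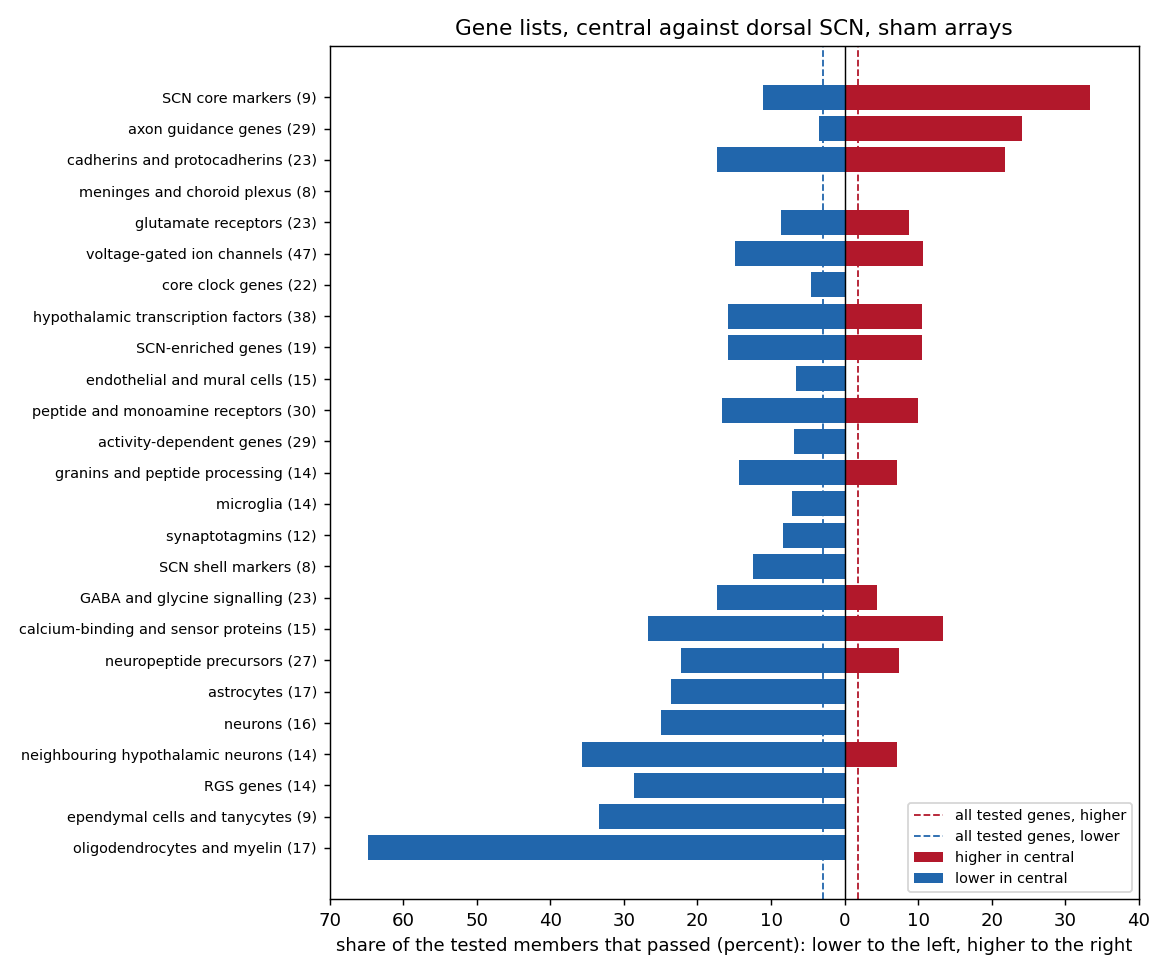
Share of the tested members of each gene list (number tested in parentheses) that passed the test, in percent of that list, with members higher in central SCN to the right and lower to the left. Dashed lines give the shares over all 13494 tested genes, 1.78% higher and 2.88% lower; the list with the largest share is oligodendrocytes and myelin, with 11 of 17 lower.

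Markers of glia and vessels were lower or below the threshold in central SCN, and no member of these lists was higher. Over all tested genes 2.88% were lower, and 7508 of the 13494 differences were negative. Of 17 tested markers of oligodendrocytes and myelin 11 were lower, all 17 differences were negative and the median was −0.64. Mobp, a structural protein of myelin, had 6.20, 5.80, 7.90 and 7.54 in central and 7.94, 7.25, 9.45 and 9.27 in dorsal arrays. The groups were separate in each batch, by −1.62 ± 0.229 (limma adjusted p = 0.00113). Mbp (−1.43 ± 0.219), Mog (−1.38 ± 0.250), Cldn11 (−1.31), Mal (−1.26), Olig1 (−1.21 ± 0.179), Sox10 (−1.18), Opalin (−1.02), Olig2 (−0.64), Cnp (−0.62) and Pdgfra (−0.51) were also lower, while another probe set of Pdgfra gave 0.12. Other probe sets of Mbp gave −1.68 to 0.18. Mean levels of the list on single arrays were 5.06 to 5.28 in central and 5.81 to 6.00 in dorsal SCN in batch A, and 6.36 to 6.69 and 7.38 to 7.45 in batch B.

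Of 17 astrocyte markers 4 were lower (Aldoc −0.68, S100b −0.69, Ntsr2 −0.59 and Gjb6 −0.56), with a median of −0.35, while Gfap (0.64 ± 0.225) and Aqp4 (0.41 ± 0.156) did not pass. The call of Gjb6 was lost without dorsal replicate 3, at a limma adjusted p of 0.112, and with the arrays centred on their medians. Mean levels of the astrocyte list were 8.17 to 8.18 in central and 8.40 to 8.41 in dorsal SCN in batch A, and 9.91 to 10.02 and 10.25 to 10.35 in batch B. Of 9 ependymal markers 3 were lower (Ccdc153 −1.56, Dynlrb2 −0.97 and Cfap126 −0.91), all of them genes of motile cilia. Rsph1, also a gene of motile cilia, did not pass. Fitted on all 24 arrays, the limma adjusted p was 0.0639 for Ccdc153, 0.0886 for Dynlrb2 and 0.145 for Cfap126. Without central replicate 4 the adjusted p in limma was 0.0972 for Ccdc153 and 0.0841 for Dynlrb2. The ependymal list had mean levels of 4.47 to 4.68 in central and 4.94 to 5.08 in dorsal SCN in batch A, and 5.66 to 5.94 and 6.22 to 6.29 in batch B, and its members Foxj1 and Rax did not reach the level needed for testing.

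Of 14 microglial markers 1 was lower, against 2.88% of all tested genes. It was Tyrobp (−0.82), with a limma adjusted p of 0.0296 that was 0.101 without central replicate 4. All 14 differences were negative, with a median of −0.46. Of 15 endothelial and mural markers 1 was lower (Slco1a4, −1.08 ± 0.221), with a median of −0.43. With the replicate block, Ctss, Csf1r and C1qb of microglia and Cldn5 and Tek of vessels also passed, at limma adjusted p of 0.00504, 0.0139, 0.0205, 0.00391 and 0.0307. The microglial list had mean levels of 4.69 to 4.92 in central and 4.98 to 5.18 in dorsal SCN in batch A, and 5.70 to 6.01 and 6.27 to 6.73 in batch B. The vessel list had 4.68 to 4.81 in central and 5.03 to 5.05 in dorsal SCN in batch A, and 5.97 to 6.42 and 6.60 to 6.97 in batch B. Of 8 markers of meninges and choroid plexus 0 passed, and the 1 blood marker tested, Slc4a1, had −0.09. Neuronal markers also included lower genes, 4 of 16 (Syt1, Nefl −1.81 ± 0.156, Nefm −0.99 and Slc17a6), and the neurofilament Nefm missed the threshold without central replicate 3 (limma adjusted p = 0.0964). The pan-neuronal genes Snap25 (0.08), Stmn2 (0.10), Map2 (−0.10) and Eno2 (−0.04) did not pass, and the list's mean level was 7.89 to 7.98 in central and 8.24 to 8.32 in dorsal SCN in batch A, and 9.41 to 9.50 and 9.95 to 10.05 in batch B. The part of these cell types in the other differences was not tested.

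The ventral sham arrays place the central SCN between or outside its neighbours. Vip had 12.16, 12.07, 12.64 and 12.86 in ventral SCN, and ventral minus central was 0.68 ± 0.446 (limma adjusted p = 0.662). Grp had 9.60, 9.64, 10.64 and 10.69 there, below central on each pair, although the difference of −0.73 ± 0.204 missed the threshold (limma adjusted p = 0.0803). Ventral minus dorsal called 3.22% of all genes (1.93% higher, 1.29% lower), and ventral minus central 3.25% (2.68% higher, 0.571% lower). Of the 15 genes most above dorsal, 14 were also higher in ventral than in dorsal SCN, and Nkd1 was the exception with a ventral minus dorsal difference of 0.40 (limma adjusted p = 0.138). Central SCN exceeded ventral SCN in 5 of the 15 (Nkd1, Cthrc1, Ccn3, Nectin3 and Tafa1) and fell below it in 1 (Dsg2). Of the 15 genes most below dorsal, 10 were also lower in ventral than in dorsal SCN, and 5 (Trh, Otp, Nrn1, Sytl4 and Fstl5) were lower in central than in ventral SCN. The comparisons with ventral share arrays with the one between central and dorsal.

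Central SCN set against the mean of ventral and dorsal gave 584 genes (4.33%), 153 higher (1.13%) and 431 lower (3.19%), or 859 with the replicate block. The 5 higher genes with the largest differences were Cthrc1 (2.16 ± 0.182, limma adjusted p = 6.17e-05), Ccn3 (2.07), Shisa6 (1.91), Nectin3 (1.90) and Grp (1.80). Shisa6, a partner of AMPA receptors, had 5.03, 3.78, 6.57 and 7.21 in central and 2.63, 3.07, 5.05 and 5.17 in dorsal arrays, and its ventral minus central difference was −2.15. The 5 lower ones were the myelin genes Mobp (−2.44 ± 0.198, limma adjusted p = 5.4e-05) and Mog (−2.32), Trh (−2.38), Fstl5 (−2.12) and Tmem88b (−2.12). The mean level of the myelin list in ventral arrays was 6.77 to 7.23 in batch A and 8.04 to 8.26 in batch B, above both other subregions. Vip (adjusted p = 0.0841 in limma) did not pass in this contrast. The count was 297 without central replicate 4, 239 with all 24 arrays fitted, and 62 and 11 in batch A and batch B alone.

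**Figure D5:**
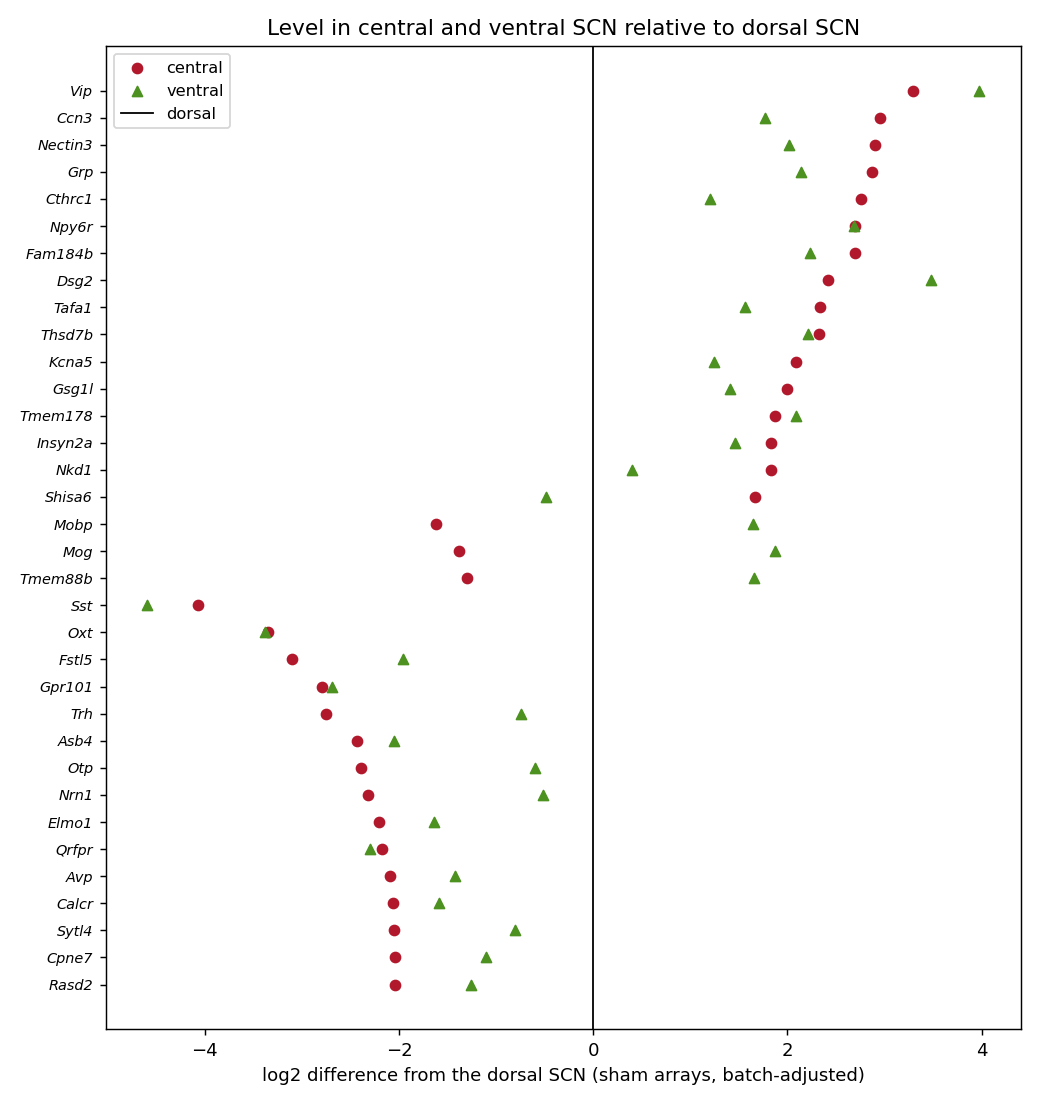
Log2 level in central (red circles) and ventral (green triangles) SCN relative to dorsal SCN (black line at 0), from the fit on the 12 sham arrays, for the 30 genes with the largest central minus dorsal differences and Shisa6, Mobp, Mog and Tmem88b. Nkd1 lies 1.83 above dorsal in central and 0.40 above it in ventral SCN, whereas the myelin genes Mobp and Mog are below dorsal in central and above dorsal in ventral SCN.

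The light arrays repeat the contrast in other samples. Fitted on the 12 light arrays, central minus dorsal gave 86 genes (0.637%), 22 higher (0.163%) and 64 lower (0.474%), and 76 of the 86 were also called in sham arrays in the same direction. Of the 628 genes called in sham arrays, 606 (96.5%) had the same sign in light arrays, against 65.2% of all tested genes. The genes higher in sham arrays had a median difference of 0.66 in light and 0.85 in sham arrays, and the lower genes −0.86 in both, or −0.70 in light without the 2 light arrays that stood apart. Dorsal replicate 4 of the light arrays stood apart in its batch, with a median correlation of 0.913 and a Gapdh 3′ to 5′ difference of 5.41, and so did central replicate 2, at 0.955. Without both arrays 166 genes were called and 610 of the 628 had the same sign. The count was 222 with the replicate block, 449 with all 24 arrays fitted, and 0 in each batch alone, where 902 and 822 genes had an unadjusted p under 0.05. It was 185 without light dorsal replicate 4, and 35 to 56 without light central replicate 1, 3 or 4, light dorsal replicate 1 or light ventral replicate 2, 3 or 4.

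All 30 genes with the largest differences kept their sign in light arrays, and 10 of the 15 higher and 7 of the 15 lower passed there. Sst had 7.51, 5.32, 5.91 and 5.44 in light central and 11.54, 10.99, 11.20 and 11.86 in light dorsal arrays, a difference of −5.35 ± 0.650 (limma adjusted p = 0.00391). No light central array reached any light dorsal array. Vip had 11.81, 11.66, 12.27 and 12.32 in light central and 8.88, 8.07, 10.25 and 10.93 in light dorsal arrays, 2.48 ± 0.339 apart. Oxt had 4.89, 4.87, 5.22 and 5.72 in light central and 5.40, 8.83, 5.38 and 5.97 in light dorsal arrays. A single light dorsal array, replicate 2, was high for Oxt, unlike the 4 sham dorsal arrays, and the difference of −1.22 ± 0.737 did not pass (limma adjusted p = 0.584). Avp (−1.64 ± 0.404) also did not pass in light arrays, with a limma adjusted p of 0.113 that was 0.00312 without both arrays that stood apart.

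Whether the contrast itself differed between light and sham mice was tested as an interaction on all 24 arrays. It called 0 genes in limma, the lowest adjusted p was 0.984, and 388 genes (2.88%) had an unadjusted p under 0.05. The lowest p were those of Smad2, a mediator of TGF-beta signals, Neto1, a partner of kainate receptors, and Plch1, a phospholipase C. Neto1 had a central minus dorsal difference of 0.16 in light and 1.36 in sham arrays, and the difference between them was −1.20 ± 0.288 (limma adjusted p = 0.984). For Oxt the difference between light and sham was 2.13 and for Trh 1.66, neither past the threshold.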

How the data were processed

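RNA from laser-dissected central, dorsal and ventral SCN was measured on 24 mouse expression arrays, 4 for each region and treatment. The deposited values are log2 expression values for 45101 probe sets, processed by the authors, and the submitters' processing notes name GCRMA 2.32.0, MAS5 and R 3.0.2 without giving their roles. The sources used here do not state how either batch was normalized. Probe sets with 1 gene symbol in the platform annotation (34945) were kept, and each of 18193 genes was represented by its probe set of highest average across the arrays. Genes with a log2 value over 4 on at least 4 arrays were tested, which left out 4699. Two-sided tests were run with lmFit and eBayes (limma 3.58.1, R 4.3.3), with group means and batch on the 12 sham arrays (8 residual and 5.29 prior degrees of freedom). Light arrays were fitted likewise, and the interaction on all 24 arrays.

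Within each batch, the deviations of same-numbered arrays of different regions correlated at 0.340 to 0.546. The replicate numbers were therefore treated as pairing the samples in alternative fits, although the labels do not say what same-numbered arrays share. The main fit had the batch term and no replicate block, so its SE and p-values do not use this pairing. A fit with the number as a block is given where it changes a call. The named genes are the 15 higher and 15 lower with the largest differences among those called with 1 direction in both batches, a panel, and the 4 members with the lowest p of each list; for central against both other regions, the 5 largest each way; for the interaction, the 3 lowest p. Further members are named where a list's count is given, chosen after their values were seen. The members of the comparison and the gene lists were chosen with earlier results of these data known. Simulated data with known changes were used to check the fit. Normalization, filters, batches, probe sets and left-out arrays were varied. The number of arrays limits the precision.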

Additional observations from a re-analysis of the deposited data

Results flagged for a closer look

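For each named gene, the 4 central and the 4 dorsal sham arrays were compared after the mean of the sham arrays of each batch was removed. The arrays' median correlations within their batch were compared in the same groups without removing a batch mean. In 12 of the 264 groups of 4 values so tested, all of them named genes, a single array lay far from the other 3, by the gap to its nearest neighbour as a fraction of the group's whole range (Dixon's test). Chance alone gives about 1 such group in 20, and the count here is no larger than that. In central SCN, replicate 4 was the lowest array for Gal (gap 0.8688 of the range) and the highest for Nefl (0.8909) and Npy5r (0.8964), and replicate 2 was the highest for Egr1 (0.8427). In dorsal SCN, replicate 2 was the lowest for Neto1 (0.8431), Per3 (0.8915), Rgs4 (0.8958) and Six6 (0.847). Dorsal replicate 3 was the highest for Nefm (0.8988) and Pcp4 (0.9209), and dorsal replicate 4 for Avpr1a (0.8645) and Dbp (0.8666).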

How the results depend on the processing

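The count of 628 genes between central and dorsal SCN in sham arrays stayed within 1.5 times under the filter, centring, quantile, trend, array-weight and probe-set alternatives (519 to 758) and in the fit of the 8 central and dorsal arrays with the replicate block (630). It was 1036 with the replicate block, 375 on the 8 arrays alone, 253 on all 24 arrays, 91 in batch A, 11 in batch B and 0 in limma without the batch term, where 100 genes had an unadjusted p under 0.05. On all arrays but the 2 light arrays that stand apart, an alternative chosen after seeing the data, it was 711. Leaving out 1 array gave 374 to 619, with 374 without central replicate 4 or dorsal replicate 3. Central against both other regions gave 584 genes, 239 on all 24 arrays, 62 in batch A and 11 in batch B (the batches chosen after seeing the data), and 297 to 567 without 1 array. The light contrast gave 86 genes, 222 with the replicate block, 449 on all 24 arrays, 166 without the 2 arrays that stand apart, 0 in batch A and 0 in batch B (these 3 chosen after seeing the data), and 35 to 185 without 1 array. The interaction called 0 genes in each alternative run, with 280 to 889 at an unadjusted p under 0.05. The causes were not tested, except that single batches and left-out arrays have fewer samples.

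The replicate block made 9 named genes pass (C1qb, Cldn5, Csf1r, Ctss, Fos, Penk, Per3, Tek and Zfhx3) and ended 0 calls. On the 8 arrays the block ended 7 calls (Calb2, Gjb6, Grik2, Nefm, Rgs3, Rorb and Tyrobp), and C1qb, Penk, Per3 and Tek did not pass. Calls of named genes ended for 22 genes on all 24 arrays, 2 (Gal and Rgs3) without the light arrays that stand apart, 8 on the 8 arrays, 46 in batch A and 81 in batch B. Signs turned for 12 genes that passed in neither fit. In batch A alone the difference was −0.072 for Arntl, 0.045 for Cry1, 0.091 for Dusp6, 0.10 for Egr1, 0.080 for Igf2, −0.29 for Nmu and −0.13 for Syt10. In batch B alone it was 0.11 for C1ql3, −0.011 for Nr1d1 and 0.045 for Slc4a1. With centred arrays C1ql3 had 0.024, with quantile normalization Arntl had −0.0057 and Nr1d1 −0.0048, and with array weights Arntl had −0.0044. Without 1 array the ranges were −0.033 to 0.12 for Arntl, −0.065 to 0.051 for C1ql3, −0.27 to 0.091 for Vipr2, −0.15 to 0.057 for Cry1, −0.059 to 0.098 for Nr1d1, −0.33 to 0.0094 for Col1a2 and −0.23 to 0.033 for Slc4a1. Values near the array medians limit the size of a difference.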
